A study of Mus musculus with 2 samples.

Results

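Forkhead factors are transcription factors that share a winged-helix DNA-binding domain, the forkhead box. They are named by subfamily with a letter and by member with a number. To survey them in tooth and skin, every array probe whose gene name was Fox, a letter from a to s, a number and at most 1 further letter was taken from the non-control spots of both arrays. The rule gave 44 genes with 66 probes, of 24103 named genes and 55675 probes measured on both arrays. The rule used names only. Total RNA came from the tooth and from the skin of wild-type mice at postnatal day 0, as the labels give it, whereas the study's methods name a stage one day later. For each tissue, 50 ng of RNA was labelled with the dye Cy3 and hybridised to 1 Agilent one-color array, both on the same slide. The number of animals, their sex and the part of the tooth or skin taken are not given in the labels. With 1 array per tissue no difference has a replicate check, and no test was run.

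In the embryo, forkhead factors act as switches that set the fate of mesenchyme, epithelium and endoderm. The FoxF and FoxC proteins act in mesenchyme and vessels, often under hedgehog signals from a neighbouring epithelium. Foxn1, Foxe1, Foxq1 and Foxi3 are known for roles in hair, nail or other skin appendages. FoxO proteins are held out of the nucleus by insulin and growth factor signals, FoxM1 drives genes for cell division, Foxj1 switches on motile cilia and Foxp3 defines regulatory T cells. Teeth and hair follicles both form from an epithelium folding into mesenchyme and share many early signals.

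Each level below is the log2 intensity of a probe minus the 75th percentile of its array, so 0 stands for the intensity at that percentile, and each difference is skin minus tooth. That percentile was an intensity of 428 for tooth and 276 for skin. Before scaling, 8 spike-in transcripts, detected on both arrays, were apart by -0.03 to 0.54 (log2). Scaling on them instead shifted every difference by -0.63, so that the median of all named genes moved from -0.04 to -0.67. Differences are therefore relative to the bulk of the genes on the array, and those toward skin of less than 0.63 change direction with this scaling, in the gene lists too. The tissue labels were checked against markers. All 7 ameloblast markers were at least 2-fold higher in tooth, as were 7 of 8 odontoblast and bone and 6 of 7 dental mesenchyme markers. In skin, 6 of 7 epidermal and 7 of 7 hair follicle markers passed 2-fold. So did 6 of 6 muscle, 4 of 4 detected fat and 5 of 5 melanocyte markers, and 3 of 5 blood vessel markers were higher in tooth. Of 4 detected cartilage markers, 2 passed 2-fold toward tooth and 0 toward skin. Of 5 detected T cell markers, 1 passed toward skin and 0 toward tooth, and of 5 Schwann cell markers 1 passed each way. The part that these other cell types play in the forkhead values was not tested, and in bulk tissue fewer cells of a type and less RNA per cell cannot be told apart.

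Of the 44 forkhead genes, 30 had a signal well above background in at least 1 tissue (68.2%), and the share over all named genes was 71.7%. A probe was well above background where the extraction software called it so. There were 25 genes detected on both arrays and 14 on neither. Those in tooth alone were Foxc2, Foxf1, Foxf2 and Foxj1, and over all genes detected on either array 7.94% were in tooth alone. Foxe1 was the 1 member in skin alone, against 4.25% of all detected genes. Toward skin, 5 of the 30 detected members passed 2-fold (16.7%), beside 14.2% of all detected genes. Toward tooth, 7 members passed it (23.3%), beside 15.5%. Both counts include genes whose dim value on 1 array was not well above background, and for Foxf1 and Foxf2 it was not a measured level. In either direction, 12 of 30 members passed 2-fold (40%, all genes 29.7%) and 7 passed 4-fold (23.3%, all genes 13.7%). With spike-in scaling the 2-fold counts were 4 toward skin and 8 toward tooth, and over all genes the shares were 9.04% and 32.6%. The median difference was 0.16 over the 30 members and -0.04 over all detected genes, and with spike-in scaling these were -0.47 and -0.67. By the percentile scaling 17 members were higher in skin by any amount (all genes 47.6%). The 18 members within 2-fold lay between -0.42 and 0.76. Of these, 12 were above 0, and with spike-in scaling 11 of the 12 turned negative, all but Foxi3, so their direction depends on the scaling.

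**Figure D1:**
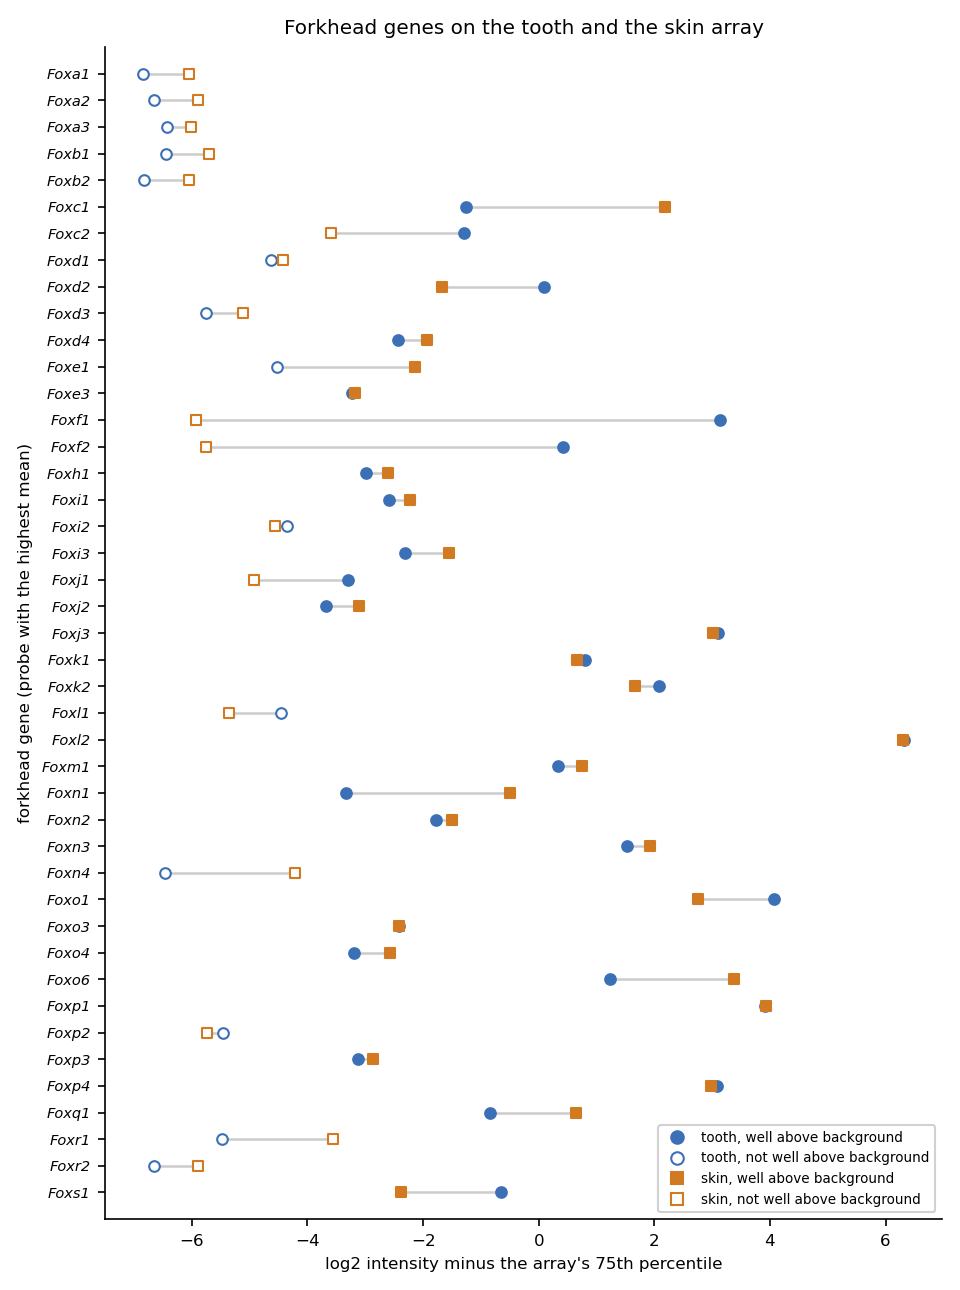
Level of 43 of the 44 forkhead genes on the tooth array (circles) and the skin array (squares), as log2 intensity minus the array's 75th percentile. Open symbols are probes not well above background, both symbols are open for 13 of the genes shown, and the levels of different genes are not comparable because each comes from its own probe.

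The FoxF subfamily had the widest gap between the arrays among the detected members, by bound or by measured difference. Foxf1 (Foxf1a on the array), a mesenchymal factor of gut and lung that responds to hedgehog signals, had an intensity of 3742 in tooth and 4.54 in skin. On the scaled log2 scale these were 3.13 and -5.93. The skin value was a surrogate, which the software writes where the signal does not exceed the background, so the difference is given as a bound. Foxf1 was at least 116-fold higher in tooth. For such a bound, the dim side was taken as the faintest signal with a call of well above background on that array. Where the measured dim value was higher, as for Foxc2, Cenpf and Trim63, that value was used. The bound is then the measured fold, which technical error can undercut. The other Foxf1 probe, dimmer in tooth at -2.34, was also a surrogate in skin at -5.78 and gave at least 2.63-fold. The Foxf1 difference depended on the processing and was -5.44 (log2) with normexp, a background correction that models the signal and the local background around each spot, and -6.25 with the mean of both probes, so that either fold lay below the bound. Foxf2, the other member, is expressed in palate mesenchyme and in pericytes of brain vessels. Its level was 0.43 in tooth and -5.76 in skin, again a surrogate, and the bound was at least 17.8-fold, while with normexp the difference was -2.89 (log2), less than this bound. All 3 FoxF probes thus gave a signal well above background in tooth and none in skin. The bases that they read are shown from the 5′ end of each probe, in lower case throughout, to show that these are separate stretches of transcript.
Foxf1 probe at chr8:123611944-123612003 (mm9, + strand), bases 1 to 30: cctcctttctgcactgtataaaagggacaa
Foxf1 probe at chr8:123610681-123610740 (mm9, + strand), bases 1 to 30: ttcaatgccatggcctcttcttctatgcat
Foxf2 probe at chr13:31723139-31723198 (mm9, + strand), bases 1 to 30: ttttatgatcttcgtatactcacacttcgc

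The FoxC pair, known from vessels, eye, kidney and skull mesenchyme, went in opposite directions. Foxc1, which also acts in hair follicle stem cells, rested at -1.26 in tooth and 2.19 in skin. This difference of 3.45 ± 0.21 was the largest toward skin among the members, 10.9-fold. The ± is the SD that the extraction software's error model gives for 1 spot on each array, and it covers technical error only. Foxc2, needed for lymphatic valves, was at -1.29 in tooth. In skin its value of -3.59 was not well above background. Its bound is the measured difference itself (-2.30 ± 0.40), 4.92-fold higher in tooth. With normexp its difference was -0.85, under 2-fold. So each of the FoxC genes was higher in a different tissue.

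Hedgehog signals were followed because FoxF, Foxe1, Foxc2 and Foxl1 are described downstream of them. Of 11 hedgehog pathway genes detected, 4 were at least 2-fold higher in tooth and 0 in skin, with a median of -0.39. Those 4 were the ligand genes Shh (2.61 in tooth, -0.38 in skin, difference -2.99) and Dhh (-1.14), the transcription factor Gli3 (-1.57) and the ligand-binding protein Hhip (-1.06). The target genes Ptch1 (0.15) and Gli1 (-0.18) were within 2-fold. FoxC and FoxF genes are also known from vessels. Of 11 detected vessel genes, 7 were at least 2-fold higher in tooth and 1 in skin, with a median of -2.08. The endothelial cadherin Cdh5 (-2.70), the receptor Flt1 (-2.57) and Notch4 (-2.52) differed the most among those measured on both arrays. The gene toward skin was the lymphatic marker Lyve1 (2.22). Other lymphatic markers of the list did not follow it, since Pdpn was higher in tooth (-2.29) and Flt4 and Prox1 were detected on neither array.

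Foxs1, which marks pericytes and sensory neurons, was at -0.65 in tooth and -2.39 in skin, well above background on both arrays. It was 3.32-fold higher in tooth (difference -1.73 ± 0.24), and with normexp the difference was -0.99. Pericyte and mural cell genes went the same way in 6 of 9 cases, with a median of -2.31. Rgs5 (-4.12), the smooth muscle actin gene Acta2 (-2.74) and the channel gene Abcc9 (-2.67) had the widest differences, and Notch3 was higher in skin (1.03). Those 6 genes were higher in tooth, as were Foxs1 and Foxf2, and the part of mural cells in the forkhead values was not tested.

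Foxd2, a factor of kidney and facial mesenchyme, was at 0.10 in tooth and -1.67 in skin, 3.41-fold higher in tooth (difference -1.77 ± 0.22). Foxd4, the other FoxD gene detected, was at -2.43 and -1.93 (0.49 ± 0.23). Foxd1, known from kidney stroma, was at -4.63 in tooth and -4.42 in skin. Foxd3, known from the neural crest and from stem cells, was at -5.75 and -5.12. Both stayed short of the call in each tissue. The genes around Foxd3 in neural crest and pigment cells were all detected, and 6 of 9 were at least 2-fold higher in skin, with a median of 1.25. They were led by Tfap2b (4.35), Sox10 (3.21) and Tfap2a (2.48), and Ednrb (1.36), Mitf (1.25) and Pax3 (1.15) were the rest.

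Among the factors of skin appendages, Foxn1, the gene disrupted in the nude mouse and needed for hair shaft keratinisation, was at -3.34 in tooth and -0.49 in skin. The difference of 2.85 ± 0.26 was 7.20-fold toward skin, and with normexp it was 1.83. The 10 genes listed around Foxn1, hair and nail keratins and their regulator Hoxc13, were all at least 2-fold higher in skin, with a median of 5.30. Krt35 (10.47), Krt83 (5.39) and Hoxc13 (5.20) had the widest differences measured on both arrays. The other FoxN genes detected differed less. Foxn2 was at -1.77 and -1.50 (difference 0.27 ± 0.22) and Foxn3, a checkpoint factor of the cell cycle, was at 1.53 and 1.92 (0.39 ± 0.20). Foxn4, a retinal factor, was at -6.47 in tooth and -4.22 in skin, not well above background on either.

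Foxq1, the gene of the satin coat mutation that acts in the hair medulla, was at -0.85 in tooth and 0.64 in skin. It was 2.80-fold higher in skin (1.48 ± 0.21), and with spike-in scaling the difference was 0.85, under 2-fold. Foxe1, a factor of thyroid, palate and hair follicle, was at -4.53 in tooth, not well above background, and at -2.13 in skin. The bound was at least 5.21-fold higher in skin. The Foxe1 difference lay below this bound with normexp (1.08, log2), with the mean of its probes (1.59) and with spike-in scaling (1.76). It was also below the bound with median scaling (2.14) and with quantile normalization (2.15). The bases of the probe are shown because the Foxe1 value rests on it, and the capitals mark TGGCAGAAC, which was searched among all probes. It stands in 25 of all 55675 probes (0.0449%), and no probe of another forkhead gene holds it. This is a count over probes, so it does not show whether transcripts of other forkhead genes hold the word. Binding of such transcripts to the Foxe1 probe was not tested.
Foxe1 probe at chr4:46357310-46357369 (mm9, + strand): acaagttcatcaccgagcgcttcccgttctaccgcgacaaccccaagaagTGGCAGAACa

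The other Foxe1 probe, a separate oligonucleotide, missed the call in each tissue, so the value has 1 spot per array behind it. Foxe3, the lens member of the subfamily, was at -3.23 in tooth and -3.18 in skin. Its difference of 0.05 ± 0.36 changed sign with 3 of the other scalings, to -0.20 by median, -0.19 by quantile and -0.58 by spike-ins.

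Foxi3, the gene of the hairless dog breeds and a target of ectodysplasin, was at -2.31 in tooth and -1.54 in skin. The difference of 0.76 ± 0.23 was the highest among the members within 2-fold. Foxi1, a factor of inner ear and kidney, was at -2.59 and -2.22 (0.37 ± 0.25). Foxi2 was at -4.36 and -4.56, short of the call in each tissue. Of 8 ectodysplasin pathway genes detected, 3 passed 2-fold toward skin and 1 toward tooth, with a median of 0.65. The adaptor gene Traf6 (1.31) and the Wnt inhibitor Dkk4 (1.62) were 2 of the former, and the receptor Edar was the other, in skin alone and at least 3.48-fold higher. Ltb, a lymphotoxin gene, was the 1 toward tooth (-2.63), and the ligand gene Eda had a difference of -0.76.

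**Figure D2:**
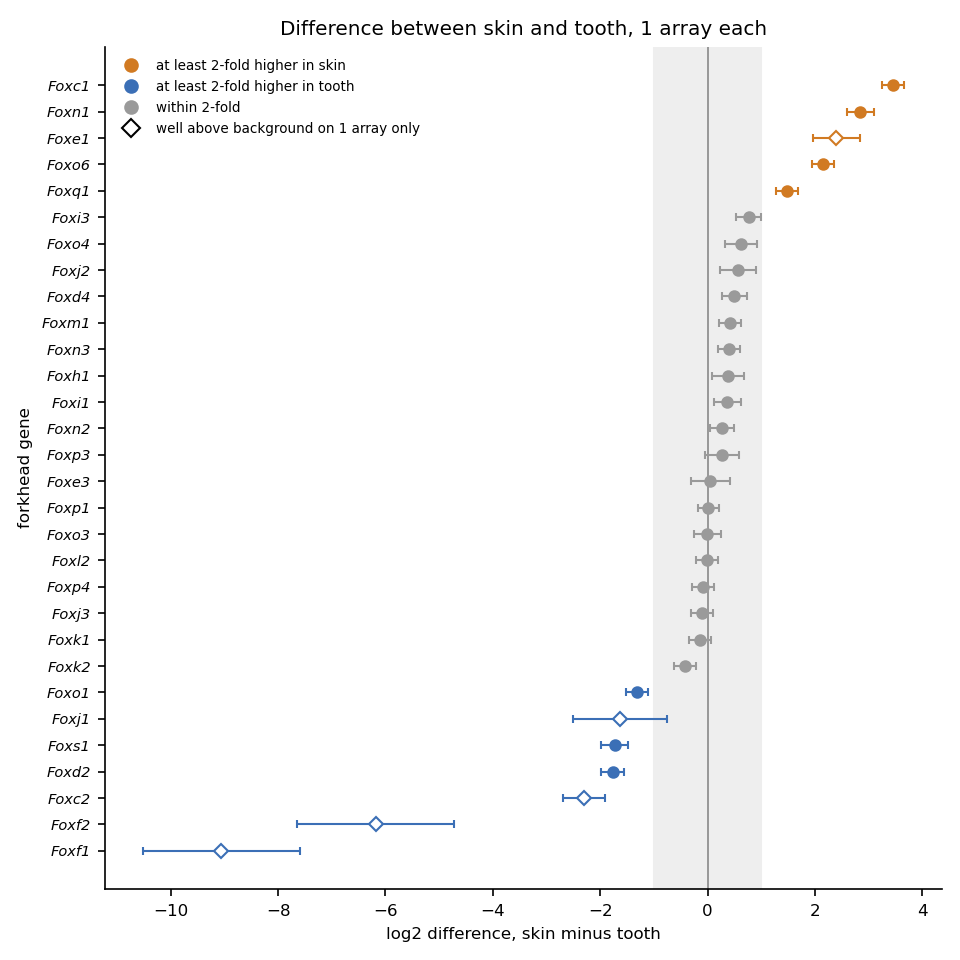
Log2 difference, skin minus tooth, of the 30 detected forkhead genes, with bars for the error-model SD of 1 spot on each array. The grey band spans 2-fold, 5 genes lie above it, 7 lie below it and 18 lie inside. Diamonds mark the 5 genes detected on 1 array alone. Their plotted difference includes a value not well above background, which for Foxf1 and Foxf2 is a surrogate.

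The FoxO subfamily split by tissue. Foxo1, a factor of metabolism and of bone, was at 4.07 in tooth and 2.76 in skin, 2.48-fold higher in tooth (-1.31 ± 0.20). Its other probe gave -1.22, from 3.27 to 2.05. Foxo6, first known from brain, was at 1.24 in tooth and 3.38 in skin, 4.41-fold higher in skin (2.14 ± 0.20), and its other probe gave 2.42, from -4.20 to -1.78. Both probes of each gene therefore showed the same direction past 2-fold. Foxo3, linked to cell survival, was at -2.41 on both arrays by one probe (-0.00 ± 0.25) and differed by 0.78 by the other. Foxo4 was at -3.20 and -2.58 (0.62 ± 0.30). A further detected Foxo4 probe, which shares 52 of 60 bases with the first, gave 0.31.

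Upstream of FoxO, 15 genes listed for the insulin and PI3-kinase pathway were all detected. The list includes Pdk1 (0.09), which in mouse names a pyruvate dehydrogenase kinase and not a member of this pathway. At least 2-fold higher in tooth were 4 of the 15 and in skin 0, with a median of -0.37. Among them were the receptor Igf1r (-1.44), the adaptor Irs2 (-1.35) and Pik3r1 (-1.10), which encodes a regulatory subunit of the kinase. The growth factor gene Igf1 was within 2-fold by its brightest probe (-0.38), but its 4 other detected probes gave -2.62 to -1.8, past 2-fold toward tooth. Of 17 described FoxO targets, 5 passed 2-fold toward skin and 3 toward tooth, with a median of -0.12. The former were Bcl6 (3.70), Fbxo32 (1.59), Klf4 (1.24), Trib1 (1.01) and, in skin alone and at least 5.67-fold higher, Trim63. Fbxo32 and Trim63 encode muscle ubiquitin ligases, and all 6 muscle markers were higher in skin, by 2.19 to 3.82. The part of muscle in these values was not tested. The targets toward tooth were Pdk4 (-2.01), Sesn3 (-1.62) and Klf2 (-1.001).

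Foxj1 was at -3.30 in tooth and -4.93 in skin, where it was not well above background. The measured values differ by -1.63 ± 0.88, but the bound was only at least 1.35-fold higher in tooth, and with normexp background correction the difference was 0.04. Foxj2 was at -3.67 and -3.11 (0.57 ± 0.33) and Foxj3 at 3.11 and 3.01 (-0.10 ± 0.20). Of the 17 motile cilium genes listed around Foxj1, 12 were detected and 5 were on neither array. Toward tooth by at least 2-fold were Rsph9 (-1.44), Rsph1 (in tooth alone, at least 2.22-fold) and Dnah9 (in tooth alone, at least 2.34-fold), which encode parts of the axoneme. Toward skin were the tektin gene Tekt4 (1.22) and Ccdc113 (in skin alone, at least 24.97-fold). Hydin (0.43) was within 2-fold, and the median was -0.04.

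Foxm1, at 0.34 in tooth and 0.76 in skin, differed by 0.42 ± 0.20, and its other probe gave -0.09. The 14 genes for division that FoxM1 binds were all detected. In 13 of them the tissues differed by less than 2-fold, led by Bub1 (-0.43), Aurka (-0.42) and Kif20a (-0.34), and the median was -0.19. The exception was Cenpf, in skin alone and at least 4.63-fold higher.

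In the FoxP subfamily, Foxp1, a factor of lung, heart and hair follicle, was at 3.92 in tooth and 3.94 in skin (0.02 ± 0.20). Its 4 detected probes gave -0.43 to 0.31. Foxp4 was at 3.08 and 2.99 (-0.09 ± 0.20), and its 3 probes gave -0.18 to 0.09, of which a pair shares 54 of 60 bases. Foxp2, known from speech circuits, had 5 probes without a call of well above background, and its brightest was at -5.47 and -5.74. Foxp3 was at -3.13 and -2.87 (0.26 ± 0.32), a difference smaller than its technical SD. Of 9 regulatory T cell genes around Foxp3, 5 were detected. Tnfrsf18 (3.40) and Tnfrsf4 (1.28), both also expressed outside T cells, were toward skin, and Ikzf4 (-1.28) and Lrrc32 (-1.05) toward tooth. The receptor gene Il2ra and the checkpoint gene Ctla4 missed the call in each tissue.

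**Figure D3:**
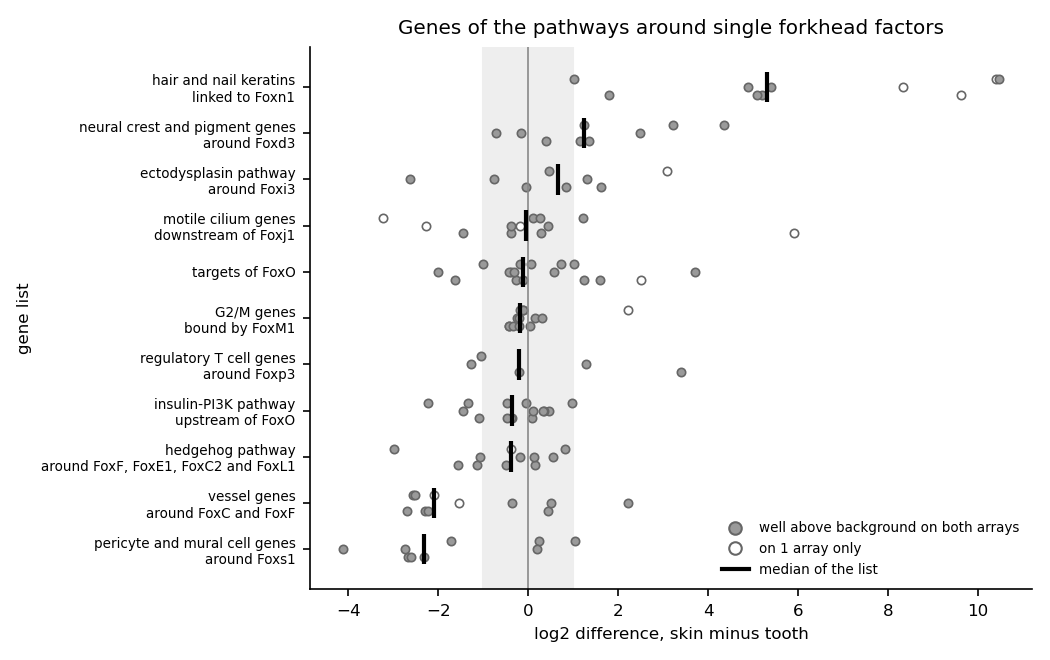
Log2 difference, skin minus tooth, of each detected gene in the 11 lists around single forkhead factors, with black bars for list medians and a grey band for 2-fold. Hair and nail keratins (median 5.30) lie toward skin, pericyte (-2.31) and vessel (-2.08) genes lie toward tooth, and the medians of 7 lists lie inside the band.

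The FoxL subfamily illustrated how a probe sets the value. The brighter Foxl2 probe had intensities of 34158 in tooth and 21801 in skin, or 6.32 and 6.30 after scaling (-0.02 ± 0.20). The other Foxl2 probe had 74.3 and 84.1, or -2.53 and -1.71, a difference of 0.81. Foxl2 is known from ovary and eyelid. The probes share 12 bases. The capitals below mark these bases, shown because the probes disagree although they overlap.
Foxl2 brighter probe, bases 1 to 30: ttcGCCTGGGGGGCCctcctgccgcaccac
Foxl2 dimmer probe at chr9:98856846-98856905 (mm9, + strand), bases 31 to 60: tcgtgaactcctacaacgGCCTGGGGGGCC

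Foxl1, a gut mesenchyme factor under hedgehog signals, was at -4.46 in tooth and -5.37 in skin, short of the call in each tissue. In all, 14 members had more than 1 probe, and 9 had at least 2 detected ones. For 5 of these 9, Foxl2, Foxm1, Foxo3, Foxp1 and Foxp4, the probes differed in sign, each time within 2-fold. In 8 of the 9 the probes lay within a range of less than 1, and Foxf1, with its skin values at surrogates, had a range of 5.61. For 30 members a single probe carries the value, and each of the 66 probes was printed as 1 spot per array.

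**Figure D4:**
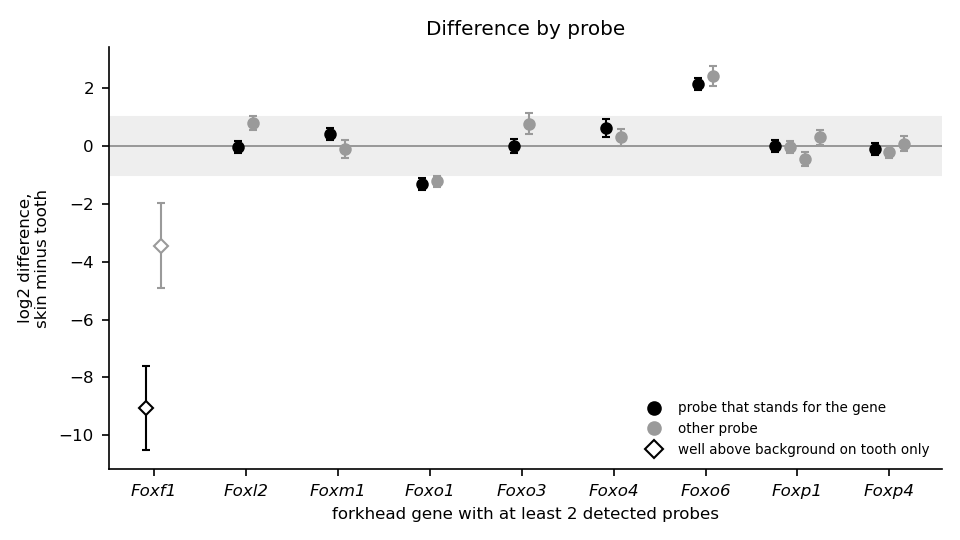
Log2 difference, skin minus tooth, by probe for the 9 forkhead genes with at least 2 detected probes, with bars for the error-model SD. The 2 probes of Foxo1 lie at -1.31 and -1.22 and those of Foxo6 at 2.14 and 2.42, outside the grey 2-fold band, and the diamonds of Foxf1 mark values detected in tooth alone.

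The remaining detected members stayed within 2-fold. Foxk1 (0.80 in tooth, 0.66 in skin, difference -0.15 ± 0.20) and Foxk2 (2.09 and 1.66, -0.42 ± 0.20), which repress autophagy genes, both leaned toward tooth, and Foxk2 passed 2-fold with spike-in scaling. Foxh1, a partner of Smad proteins in nodal signalling, was at -2.99 and -2.61 (0.38 ± 0.30). The 14 members on neither array included Foxa1, Foxa2, Foxa3, Foxb1, Foxb2, Foxd1, Foxd3, Foxi2, Foxl1, Foxn4, Foxp2, Foxr1 and Foxr2. Among these are the FoxA factors of endoderm, the FoxB factors of the brain and the FoxR genes. Their intensities ran from 3.74 to 20.8 in tooth and from 4.15 to 23.4 in skin. By the more lenient call of signal above background, 9 of the 14 passed on at least 1 array, and Foxa1, Foxa2, Foxb1, Foxb2 and Foxr2 were surrogates on both. These genes were not detectable here, which does not show that they are absent.

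Some forkhead genes lie side by side in the genome, so neighbours were compared. On chromosome 8, Foxf1, Foxc2 and Foxl1 lie within 43.8 kb (chr8:123610681-123654461, mm9). Foxf1 and Foxc2 were higher in tooth, and Foxl1 was detected in neither tissue. On chromosome 13, Foxq1, Foxf2 and Foxc1 lie within 250 kb (chr13:31652206-31902482). There the outer genes, Foxq1 and Foxc1, were higher in skin, and Foxf2 between them was detected in tooth alone. On chromosome 4, Foxd2 and Foxe3 lie within 18.9 kb (chr4:114578944-114597811), and Foxd2 was higher in tooth while Foxe3 differed by 0.05. Past 2-fold, neighbours shared a direction on chromosome 8 and did not on chromosome 13.

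**Figure D5:**
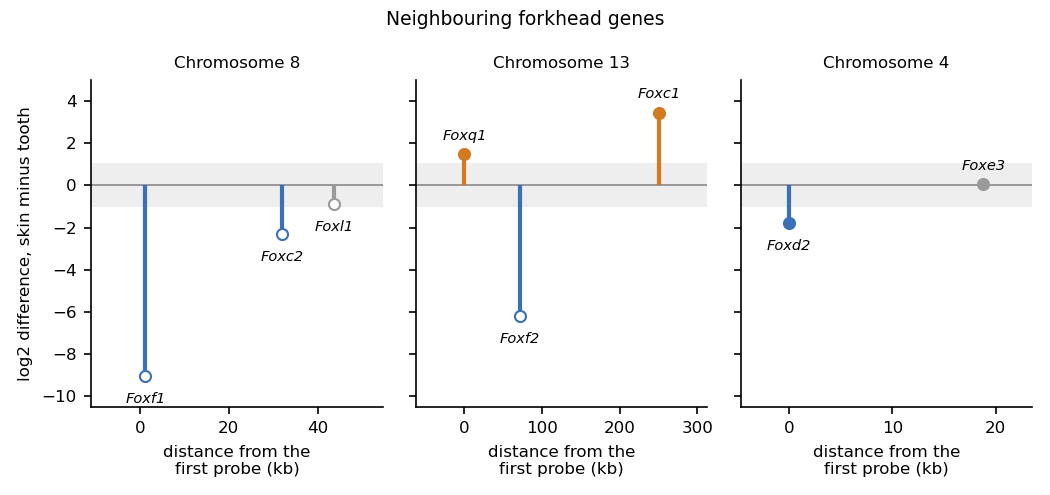
Log2 difference, skin minus tooth, against the distance in kb from the first forkhead probe of the group, for 3 groups of neighbouring genes, with open circles for probes that lack a call of well above background on at least 1 array and a grey band for 2-fold. On chromosome 13 Foxq1 (1.48) and Foxc1 (3.45) lie above it, and Foxf2 lies below, with a skin value that is a surrogate and a bound of at least 17.8-fold.

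Because Foxf2 and Foxc1 are neighbours with opposite differences, their promoters are shown from the RefSeq table (assembly GRCm38.p6, + strand). Each line holds the 250 bases before the annotated start. The capitals mark GGGCGG, the core of the GC box, and ATTGG, which is CCAAT on the other strand. The Foxf2 stretch has a GC content of 71.6% with 21 CpG, 2 GC boxes and no CCAAT. The Foxc1 stretch has 70.8% with 29 CpG, 1 GC box and 1 CCAAT. Neither holds TGTTTAC, a core word of forkhead sites, GACCACCCA, a core of GLI sites, or TATAAA on either strand.
Foxf2 promoter, chr13:31625566-31625815: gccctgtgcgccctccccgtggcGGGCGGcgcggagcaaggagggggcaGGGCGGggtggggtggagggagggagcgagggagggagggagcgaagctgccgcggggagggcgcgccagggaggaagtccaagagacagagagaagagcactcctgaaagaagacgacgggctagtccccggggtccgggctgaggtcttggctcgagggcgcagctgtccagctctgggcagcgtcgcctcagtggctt
Foxc1 promoter, chr13:31806396-31806645: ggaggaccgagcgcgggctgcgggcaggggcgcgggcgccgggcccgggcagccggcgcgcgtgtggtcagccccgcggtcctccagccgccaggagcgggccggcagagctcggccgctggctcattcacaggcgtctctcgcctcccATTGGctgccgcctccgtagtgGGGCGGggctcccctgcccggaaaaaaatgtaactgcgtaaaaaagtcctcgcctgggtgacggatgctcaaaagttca

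The table held 33 promoters for 28 of the 44 forkhead genes, and on both strands of the same window 23 of these 33 held GGGCGG (69.7%), beside 32.7% of all 32851 promoters. The median GC content was 62% for the forkhead promoters and 52.4% for all. CCAAT stood in 14 (42.4%, all 33.8%), TATAAA in 3 (9.09%, all 12.4%), TGTTTAC in 1, that of Foxa1 (3.03%, all 3.17%), and GACCACCCA in 0 (all 0.225%). GC boxes were found in members higher in skin (Foxc1, Foxn1), higher in tooth (Foxd2, Foxf2, Foxo1) and within 2-fold alike. These are matches of letters in a fixed window and not sites.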

How the data were processed

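The deposited scanner files hold, per the file headers, linear intensities made with Agilent Feature Extraction 10.7.3.1, which had subtracted background, removed trends within the array and written surrogates for very dim spots (25.0% of tooth and 27.7% of skin spots), with yes-or-no calls beside them. The authors also deposited a table of ratios of each intensity to 1 factor per array, used as an alternative. Its values were not centred on genes. No deposited column was left unused for want of a sample.

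Control spots and outlier spots were left out, replicate spots were averaged as log2 values, and the 75th percentile over non-control probes was subtracted. Each gene was represented by its brightest probe (mean of both arrays), and probes were grouped by the array's gene name. A probe was detected where over 50% of its spots were well above background. The lowest such signal was -4.52 in tooth and -3.73 in skin, and bounds use it. Of 308 negative-control spots, 0 in tooth (an exact 95% binomial limit of 1.19%) and 1 in skin were called well above background, intervals that cover counting error only. The array number limits the precision. From the median scatter of replicate spots within each array, a difference has an SD of 0.12, which leaves out variation between arrays. The error-model SD of the detected members was 0.20 to 1.45. Scaling and normexp were run in Python 3.11.15, with numpy 2.4.6, pandas 2.3.3 and limma 3.58.1 in R 4.3.3. The percentile, median and quantile scalings were first tested on simulated data, and normexp and spike-in scaling were not. There were 10 alternatives.

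The forkhead family and its name rule, the gene lists, markers, promoter words and comparisons were chosen with earlier results of these data known, although the name rule itself uses no measured value. Named with values were members at least 2-fold apart, with a bound, with probes of opposite sign or in the subfamily of such a member, and of each list the 3 widest differences measured on both arrays. Other list genes were named after their values were seen, where a count was small or a gene central. Probe coordinates are mm9, and the gene part under each probe was not analysed here. Some items, among them 1 member, 1 listed gene and part of a probe sequence, are not reported here.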

Additional observations from a re-analysis of the deposited data

Results flagged for a closer look

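Probes outside the forkhead rule that lie beside a forkhead gene gave a signal in 2 named non-coding genes, above the level of the negative-control spots, whose calls of well above background numbered 0 of 308 (tooth) and 1 of 308 (skin). 9130206I24Rik, named Foxd2os in RefSeq and lying beside Foxd2, was at -1.49 in tooth and at -2.99 in skin, with a difference of -1.49 ± 0.28 and both values well above background. A long non-coding probe at the same place gave -1.34 and -3.16. The other, 1110050K14Rik, named Fendrr in RefSeq and lying beside Foxf1, was at -2.75 on the tooth array. On the skin array it was at -5.73, not well above background, so it was at least 1.97-fold higher in tooth. Of the 14 non-coding probes beside Foxf1, 12 were well above background on neither array, as were 14 of 16 beside Foxf2 and 2 of 4 beside Foxd2. A long non-coding probe beside Foxf2 went the opposite way from Foxf2, at -4.82 in tooth, not well above background, and -2.96 in skin, at least 2.94-fold higher in skin, and another beside Foxf2 was at -2.63 and -2.65. None of these values has a replicate array.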

How the results depend on the processing

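No paired analysis was possible because there was 1 array per tissue, and for the same reason no array could be left out. Foxc1, Foxn1 and Foxo6 toward skin, and Foxd2 and Foxo1 toward tooth, passed 2-fold under all 10 alternatives. Foxe1, Foxf1 and Foxf2 also passed under all that kept them, Foxe1 by little with normexp (1.08). The count toward tooth was 4 with normexp background correction, which lost Foxc2, Foxs1 and Foxj1, and 3 when only genes well above background on both arrays were kept, since fewer genes were tested. Foxj1 reversed to 0.039 with normexp. The members' median was 0.31 with the mean of probes, -0.093 with median scaling and 0.37 without the filter on dim probes. It was 0.31 with normexp, 0.0087 with quantile normalization and -0.47 with spike-in scaling. In each it lay above the median of all genes. Median and spike-in scaling shift every difference by the same amount, so this order could not change with them. With median scaling the median of all genes was -0.29. Over all genes the share toward skin was 9.04% with spike-in scaling, and the share toward tooth 32.6% there and 9.65% with normexp. With median scaling the shares were 11.6% and 20.1%. Foxe3 and Foxp1 changed sign with median scaling, quantile normalization and spike-ins, and Foxp1 also with normexp. Spike-in scaling turned the sign of 11 members. Dim members on both arrays, Foxn4 and Foxr1, passed 2-fold toward skin without the filter or with the lenient call. With dim values at the bound, Foxj1 did not pass. The cause was not tested. Signal over background limits every value near the floor.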
